A study of Mus musculus with 12 samples.

Results

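The genes described here make, move and dispose of cholesterol, and there were 32 of them among the 55367 gene symbols of the liver table. They were taken by symbol from a list of 8 enzymes of early synthesis, 12 of late synthesis, 4 genes of SREBP control, 5 of uptake, trafficking and storage, and 3 of export. Each symbol occurred on 1 row, and all 32 passed the filter on low values, 1 TPM or more in 6 or more libraries. TPM is a transcript abundance scaled for transcript length and to a common library total, so levels of different genes can be set side by side. The libraries came from frozen liver of Balb/c mice, wild type and 6 weeks old, with 6 control samples (numbered 3 to 8) and 6 from severe acute pancreatitis (SAP, numbered 10 to 15). The SAP mice received caerulein, a peptide that overstimulates the exocrine pancreas. Its dose, the time between treatment and collection, the sex of the mice and their feeding state were not given in the sources used here, and the series text speaks of a pair of mouse models where the labels give 1 strain. Whether each sample is its own animal was not given in the labels, and the p-values then cover only the spread among these libraries, which may be technical.

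Cholesterol is built from acetyl-CoA in a long chain of steps. The early enzymes lead through mevalonate to farnesyl diphosphate, which also feeds dolichol, ubiquinone and protein prenylation, and the late enzymes turn it into squalene, lanosterol and cholesterol. Transcription of most of these enzymes is driven by SREBP2, a membrane-bound factor encoded by Srebf2. Scap escorts it out of the endoplasmic reticulum when sterols are low, and the Insig proteins hold it there when sterols are high. The liver is the main organ that takes cholesterol from lipoproteins and the one that sends it into bile.

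SAP livers did not show 1 shared direction over these genes. Of the 32 members, 12 fell, 5 rose and 15 did not pass the test (limma, Benjamini-Hochberg adjusted p under 0.05 over all 11335 genes tested). That is 53.1% of the members, and 44.5% of all tested genes passed, with 19.5% higher and the rest of those lower. The median log2 difference, SAP minus control on the log2(TPM + 1) scale, was -0.24 for the members and -0.03 for all tested genes. Values of SAP and control did not overlap for 9 members (8 lower, 1 higher in SAP), against 25.6% of all tested genes. The members that fell by over 1 on the log2 scale were Sc5d and Tm7sf2 of late synthesis and Insig1 of SREBP control, while Hmgcs1, Idi1 and Fdps of early synthesis and Msmo1 of late synthesis lay between -0.16 and 0.14.

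**Figure D1:**
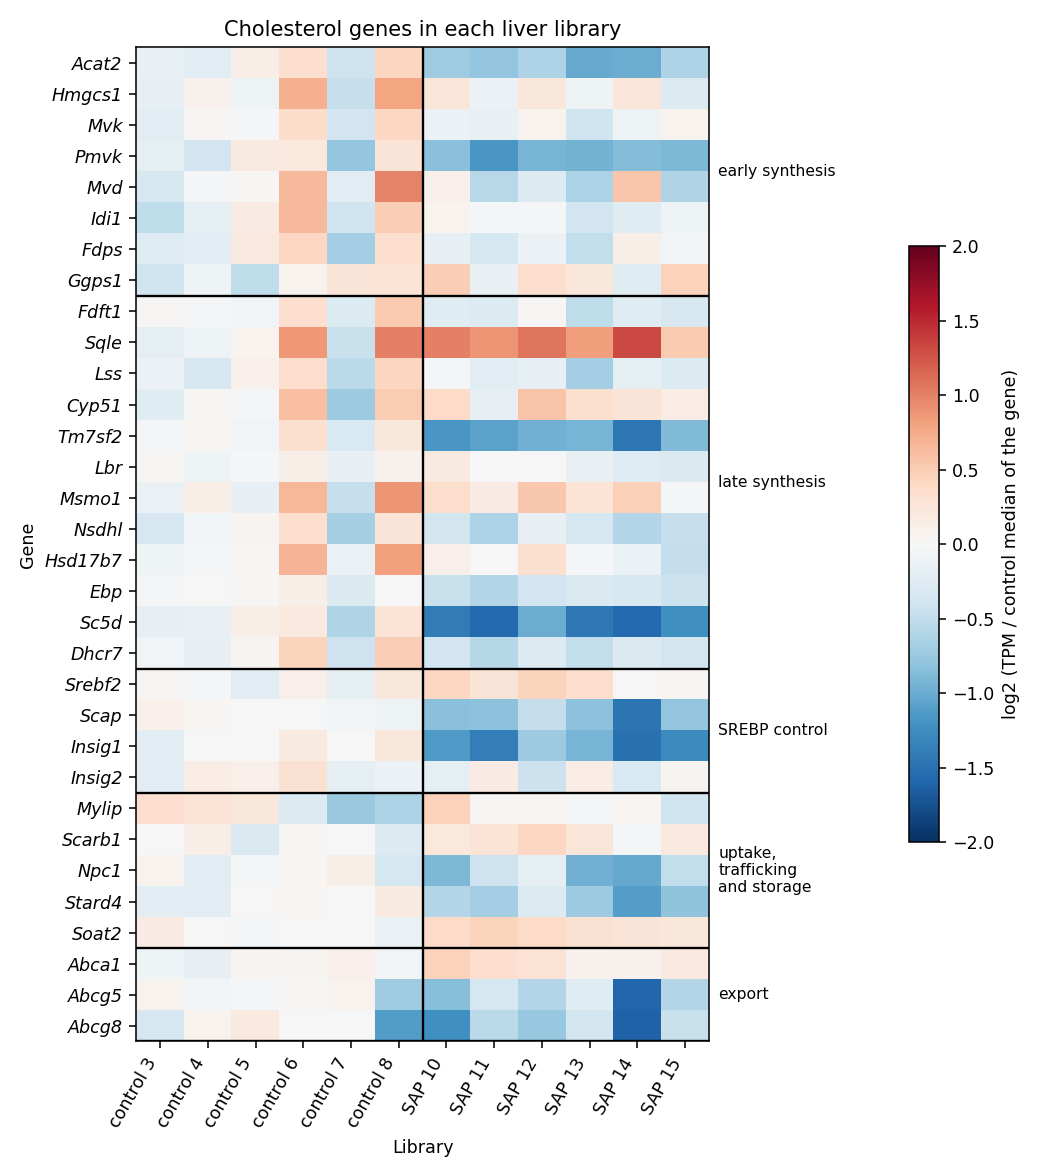
Colour gives the log2 ratio of TPM to the gene's control median (scale -2 to 2) for 32 genes in rows and 12 libraries in columns, with a black line between control and SAP. Sc5d, Tm7sf2, Scap and Insig1 are blue in all 6 SAP columns, Sqle is red in all 6, and most synthesis enzymes are red in control 6 and control 8 and blue in control 7.

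Libraries differed in ways that touch these values. Acute-phase transcripts took 2.21 to 2.50% of TPM in controls and 18.9 to 32.3% in SAP, highest in SAP 14. How far this share lowered the TPM of other genes in SAP was not tested. When TPM was rescaled without the acute-phase transcripts, the median of all genes moved from -0.03 to 0.27, and with it 7 members fell and 9 rose. With factors of the TMM kind it moved to 0.02. Xist, a nuclear RNA, was below 25 TPM in control 5 and in SAP 11, 13, 14 and 15, and at 49.1 to 60.7 TPM elsewhere. The labels give no reason for this split, and its cause was not tested. In the 7 high Xist libraries alone (5 control, 2 SAP) 5 members fell and 3 rose, all 8 among the 17 called over all libraries, and without SAP 14 (the lowest in Xist) and control 5 (the 1 low control) there were 10 lower and 4 higher. Hepatocyte markers, 8 of 8 present in every library, summed to 82640 to 95000 TPM in controls and 38520 to 52890 TPM in SAP, with 6 of 8 lower and 1 higher. A large part of these sums was 1 gene, Alb, at 57713 to 69833 TPM in controls and 21995 to 32403 TPM in SAP. Kupffer cell or macrophage markers (9 of 9 tested, 1 higher, 3 lower) summed to 205 to 315 TPM in controls and 183 to 413 TPM in SAP. Neutrophil markers (4 of 8 tested, 3 higher) summed to 4.32 to 17.3 TPM and 36.5 to 111 TPM, with Ly6g, Mpo, Elane and Cxcr2 under 1 TPM in every library. Monocyte markers (3 of 5 tested, 2 higher, 1 lower; Ccr2 under 1 TPM throughout) summed to 41.3 to 61.2 TPM and 58.1 to 81.6 TPM. Markers of sinusoidal endothelium (6 of 6 tested, 3 higher, 0 lower) summed to 87.6 to 121 TPM and 97.8 to 142 TPM, and those of stellate cells (6 of 6 tested, 4 higher, 1 lower) to 107 to 132 TPM and 110 to 143 TPM. Of 6 cholangiocyte markers 2 were tested and neither passed, and no pancreatic acinar or lymphocyte marker (8 each) passed the filter on low values. The part of these shifts in the results was not tested. In bulk liver, fewer cells of a type and less of a marker's RNA per cell cannot be told apart.

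Promoter sequence is given for 5 members, chosen because 3 hold a match to a core of the sterol regulatory element that SREBP binds (Hmgcs1, Srebf2, Msmo1) and Insig1 and Sc5d are among the 3 with the largest falls. The sequences are from RefSeq on GRCm38.p6, taken from the 250 bases before each gene's RefSeq start, on the gene's strand. Those of Hmgcs1 and Sc5d end at the RefSeq start, and those of Srebf2 and Insig1 end where an exon of GENCODE M21 begins. The annotations place the starts differently: the RefSeq start lies 28 and 44 bases before the GENCODE start for Hmgcs1 and Sc5d, and 49, 88 and 214 bases after it, inside the GENCODE gene, for Insig1, Srebf2 and Msmo1. Of Msmo1, whose core is inside a GENCODE exon, only 30 bases around it are shown. For Tm7sf2, the third of the largest falls, the RefSeq start lies 523 bases inside the GENCODE gene and the whole window falls within exons, so none is shown. Capitals mark TCACNCCA, the core searched, and, except in the Msmo1 stretch, CCAAT, the box bound by NF-Y, a partner of SREBP, both on either strand. The build the authors used was not given in the sources used here.

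Hmgcs1 (chr13:119690101-119690350, plus strand): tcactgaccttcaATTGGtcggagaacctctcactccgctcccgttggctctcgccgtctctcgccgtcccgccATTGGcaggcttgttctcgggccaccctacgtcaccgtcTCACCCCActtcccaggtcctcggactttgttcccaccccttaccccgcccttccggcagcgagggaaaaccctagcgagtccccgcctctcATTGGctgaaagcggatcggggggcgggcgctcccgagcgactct
Srebf2 (chr15:82147019-82147180, plus strand): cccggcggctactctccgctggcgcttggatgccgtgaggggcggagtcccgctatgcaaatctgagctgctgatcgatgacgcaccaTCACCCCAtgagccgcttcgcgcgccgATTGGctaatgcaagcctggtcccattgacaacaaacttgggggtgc
Msmo1 (chr8:64733737-64733766, minus strand): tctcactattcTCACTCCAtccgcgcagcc
Insig1 (chr5:28071162-28071362, plus strand): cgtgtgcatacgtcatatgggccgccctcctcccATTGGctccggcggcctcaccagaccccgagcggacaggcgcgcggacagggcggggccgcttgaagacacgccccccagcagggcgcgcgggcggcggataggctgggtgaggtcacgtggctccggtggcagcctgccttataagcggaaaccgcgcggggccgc
Sc5d (chr9:42264301-42264550, minus strand): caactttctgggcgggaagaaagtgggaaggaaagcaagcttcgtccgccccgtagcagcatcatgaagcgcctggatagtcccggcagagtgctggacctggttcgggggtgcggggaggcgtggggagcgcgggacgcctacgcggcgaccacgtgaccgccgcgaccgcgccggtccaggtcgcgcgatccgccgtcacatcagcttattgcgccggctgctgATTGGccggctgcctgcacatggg

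The Hmgcs1 core lies 137 bases before the RefSeq start and that of Srebf2 162 bases before it. The Msmo1 core lies 177 bases before its RefSeq start. A window of 300 bases, reaching 50 past the start, was in the table for 25 of the 32 members and for 27025 genes in all; Fdps, Fdft1, Sqle, Scarb1, Npc1, Stard4 and Soat2 had no entry. TCACNCCA was found in 3 of the 25 members (12.0%) and in 4.97% of all genes, and CCAAT in 22 of 25 (88.0%) and 41.1%. The E-box CACGTG was in 6 of 25 (24.0%) and 8.09%, and the GC box GGGCGG in 21 of 25 (84.0%) and 38.2%, with overlaps between motifs allowed. A match is a description of letters, and its absence says only that they are not in this window. The 3 members with the core were Hmgcs1 (log2 difference -0.11 ± 0.20, SE), Msmo1 (0.14 ± 0.20) and Srebf2 (0.26 ± 0.10). Of these 3 only Srebf2 passed the test, higher, where 2832 of the 11335 tested genes were lower and 2212 higher; nothing is read from a count this small.

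In early synthesis, Acat2 and Pmvk fell and the other 6 enzymes did not pass the test. None rose, at an unadjusted p under 0.05 either (0 higher, 2 lower by that measure), and the median log2 difference of the 8 was -0.15. Acat2, the cytosolic thiolase that joins acetyl-CoA units, ranged from 59.97 to 107 TPM in controls (median 79.5) and from 39.5 to 51.6 TPM in SAP (median 47.5). The groups did not overlap, and the log2 difference was -0.80 ± 0.14 (SE; limma adjusted p = 3.78e-04); within the high Xist libraries it was -0.66 (adjusted p = 0.0535). Acat3, a near-identical neighbour on chromosome 17, was also lower in SAP, 295 ± 32.3 against 143 ± 30.03 TPM (SD, n = 6 each), and how reads shared by both genes were assigned was not given in the sources used here.

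Pmvk, the kinase that acts on phosphomevalonate, ranged from 60.6 to 123 TPM in controls (median 103) and from 45.9 to 57.6 TPM in SAP (median 54.5). Every SAP value lay below every control value, with a log2 difference of -0.81 ± 0.15 (SE; limma adjusted p = 7.76e-04), and -0.70 within the high Xist libraries (adjusted p = 0.0679). Mvk, the kinase of the step before, spanned 29.2 to 50.5 TPM in controls and 28.7 to 40.1 TPM in SAP, so its groups overlapped (-0.13 ± 0.13, adjusted p = 0.438). The ratio of Pmvk to Mvk within a library, which no scaling of libraries can change, was 2.05 to 3.12 in controls and 1.34 to 1.86 in SAP. The ratio of Acat2 to Hmgcs1, the next enzyme, was 0.501 to 0.760 in controls and 0.276 to 0.510 in SAP, with SAP 15 inside the control range. Both pairs were picked after the values were seen.

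Hmgcs1, which makes HMG-CoA, had a wide control range, 88.7 to 210 TPM (median 122), and its 6 SAP values, 101 to 145 TPM (median 129), all lay inside it. Idi1, the isomerase that readies isopentenyl diphosphate, ran from 57.5 to 128 TPM in controls and 62.6 to 85.3 TPM in SAP. Fdps, the farnesyl diphosphate synthase, was the most abundant enzyme of the pathway by TPM, with 329 to 708 TPM in controls (median 529) and 375 to 573 TPM in SAP (median 478). For all 3 the SAP values lay within the control range, and the log2 differences were -0.11 ± 0.20, -0.16 ± 0.18 and -0.14 ± 0.17 (SE). Mvd, the decarboxylase, was -0.40 ± 0.24 (adjusted p = 0.206). Ggps1, which branches off to geranylgeranyl diphosphate, was low, at 1.59 to 2.72 TPM in controls and 1.91 to 3.19 TPM in SAP.

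In late synthesis 5 of 12 enzymes fell, 1 rose and 6 did not pass the test, with a median log2 difference of -0.30. The enzymes that fell sit at several points of the chain: Fdft1 opens it, Tm7sf2 acts in the middle, and Ebp, Sc5d and Dhcr7 act near its end. Sc5d, the desaturase that acts on lathosterol (chromosome 9, 42251595 to 42264256 in GENCODE M21 on GRCm38), ranged from 134 to 248 TPM in controls (median 204) and from 69.2 to 102 TPM in SAP (median 76.6). Its highest SAP value was well below its lowest control value. The log2 difference was -1.30 ± 0.14 (SE; limma adjusted p = 9.70e-06).

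Tm7sf2, a sterol reductase of the endoplasmic reticulum that acts on the product of Cyp51 (chromosome 19, 6062821 to 6068373), ranged from 108 to 166 TPM in controls (median 133) and from 49.1 to 72.2 TPM in SAP (median 66.2). The groups were separate, with a log2 difference of -1.09 ± 0.11 (SE; limma adjusted p = 6.43e-06). Lbr, the nuclear envelope protein with the same reductase activity, was far lower by TPM, at 3.13 to 3.84 in controls and 2.88 to 3.98 in SAP, and did not pass the test (-0.06 ± 0.08). A gene of 11.2 TPM (Vps51) overlaps Tm7sf2 on the same strand, and the handling of shared reads was not given in the sources used here.

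Sqle, the epoxidase that commits squalene to sterols and a control point of the late chain (chromosome 15, 59315077 to 59331192), was the only synthesis enzyme that rose past the threshold; with TPM rescaled without acute-phase transcripts Ggps1, Cyp51, Msmo1 and Lbr passed it upward too. It ranged from 20.8 to 56.9 TPM in controls (median 28.4) and from 40.8 to 70.7 TPM in SAP (median 54.7). The groups overlapped, because control 6 (52.0 TPM) and control 8 (56.9 TPM) reached the SAP range while the other 4 controls did not exceed 29.9 TPM. The log2 difference was 0.71 ± 0.23 (SE; limma adjusted p = 0.0213), and it missed the threshold without SAP 14 and control 5 (0.62, adjusted p = 0.0750), with no filter on low values (adjusted p = 0.0570) and within the high Xist libraries, where the difference was 0.78 (adjusted p = 0.154). The groups did not overlap in the level of Sqle relative to its neighbours in the chain: the Sqle to Fdft1 ratio was 0.282 to 0.477 in controls and 0.589 to 0.969 in SAP, and the Sqle to Lss ratio 0.885 to 1.38 and 1.62 to 2.68. These pairs were picked after the values were seen, so the ratios carry no test.

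The other late enzymes differed less. Ebp, the sterol isomerase before Sc5d, went from a control range of 223 to 294 TPM to a SAP range of 181 to 222 TPM, just short of touching. Its log2 difference was -0.38 ± 0.07 (SE; limma adjusted p = 9.30e-04), but it was 0.01 under quantile normalization and not past the threshold after rescaling without acute-phase transcripts (adjusted p = 0.864). Dhcr7, the last reductase, was 85.3 to 160 TPM in controls and 76.6 to 94.5 TPM in SAP, overlapping (-0.45 ± 0.14, adjusted p = 0.0169). That call was lost under quantile normalization (adjusted p = 0.342), after the rescaling (-0.09), with Xist as a term (-0.41, adjusted p = 0.0621) and within the high Xist libraries (-0.38, adjusted p = 0.257). Fdft1, squalene synthase, was -0.35 ± 0.13 (adjusted p = 0.0374), and this call was lost under 14 of 24 alternatives (among them those without control 3, 6 or 8 or SAP 10, 11, 13, 14 or 15), with a difference of 0.01 in 1 more, the rescaling. The 774 bases that Fdft1 shares with Ctsb on the opposite strand belong to a gene of 284 TPM. Cyp51 (0.22 ± 0.20), Msmo1 (0.14 ± 0.20), Lss (-0.24 ± 0.16), Nsdhl (-0.35 ± 0.15) and Hsd17b7 (-0.25 ± 0.17) did not pass the test.

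**Figure D2:**
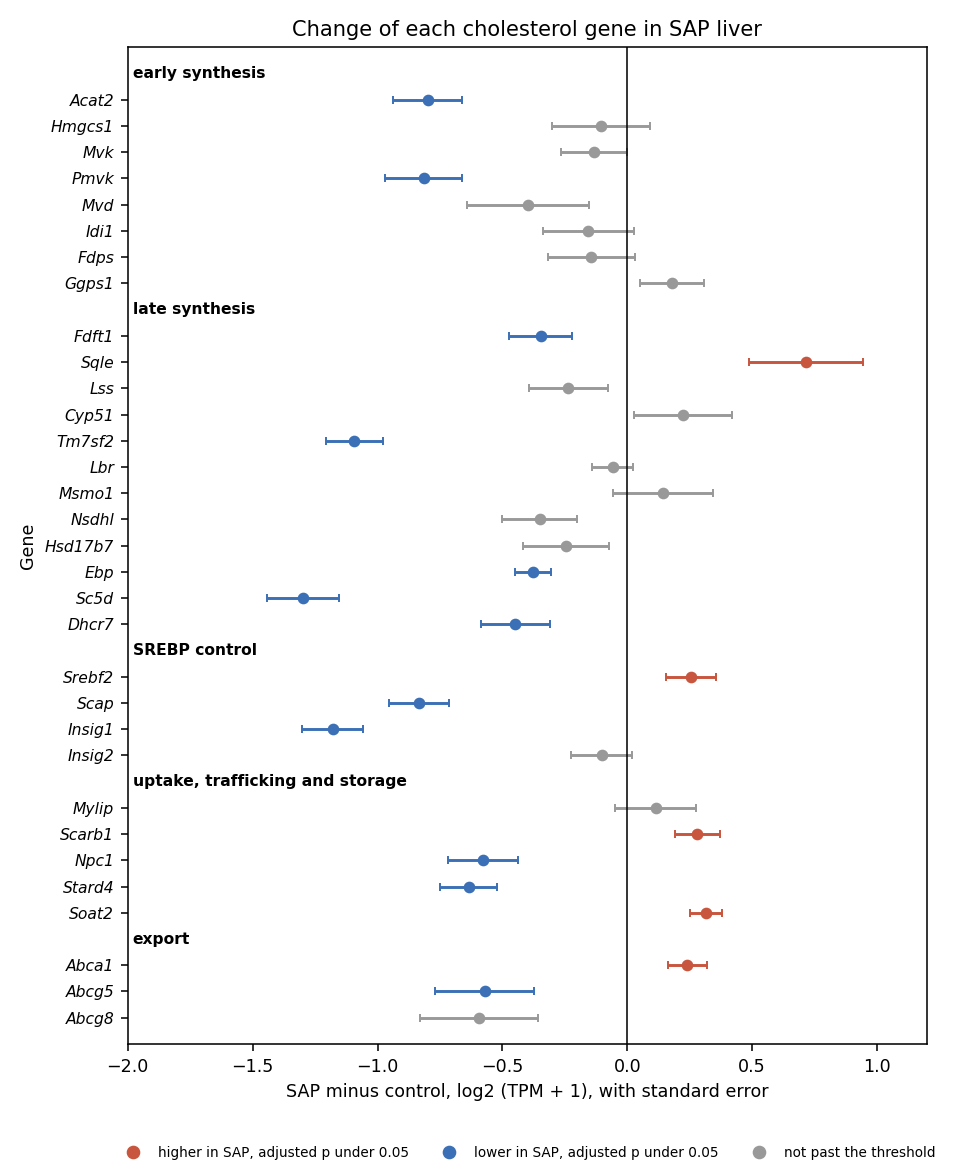
The x axis gives the log2 difference, SAP minus control on the log2(TPM + 1) scale, for the 32 genes grouped by role; points are limma estimates and bars standard errors (6 libraries a group). Blue points are lower and red points higher past the threshold, with Sc5d at -1.30 at the left and Sqle at 0.71 at the right; the blue point of Ebp moves to 0.01 under quantile normalization and that of Fdft1 to 0.01 when TPM is rescaled without acute-phase transcripts.

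Set side by side, both arms of synthesis held transcripts that fell and transcripts that did not pass the test. The test was passed by 2 of 8 early and 6 of 12 late enzymes, against 44.5% of all tested genes, and the difference between the roles was not tested. The summed TPM of the 8 early enzymes was 649 to 1340 in controls and 690 to 950 in SAP, and that of the 12 late enzymes 827 to 1423 and 759 to 952. In neither sum did the groups separate. Within a library Sc5d against Dhcr7, the next enzyme of the chain, had a ratio of 1.501 to 1.89 in controls and 0.745 to 1.08 in SAP, without overlap; this pair too was picked after the values were seen.

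The synthesis enzymes varied together between control libraries. Control 6 and control 8 were the 2 highest controls for 18 of the 20 enzymes (Ggps1 and Ebp were the exceptions), and control 7 was the lowest for 17 of 20. Over all tested genes, 10.1% had control 6 and control 8 as the highest pair, and of the 12 members outside synthesis 3 did. The median enzyme was 0.37 and 0.44 above its control median on a log2 scale in control 6 and control 8, and 0.41 below it in control 7. All these values share a library's depth and scaling, and the enzymes are not independent of each other.

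In SAP this spread between libraries was smaller. The coefficient of variation (SD over mean of TPM) was larger in controls than in SAP for 19 of 20 enzymes, Lbr being the exception, while only 27.1% of all tested genes were more variable in controls. The median coefficient of the enzymes was 25.3% in controls and 13.7% in SAP, and that of all tested genes 12.6% and 17.98%. Hmgcs1 went from 35.7% to 15.4%, Idi1 from 33.3% to 11.0% and Pmvk from 25.9% to 7.74%. Control 6 and control 8 were each among the 2 highest controls for 19 of 20 enzymes; among SAP libraries SAP 12 was among the 2 highest for 12, SAP 10 for 10 and SAP 14 for 8. Most enzymes share their highest and lowest controls, so the 19 are not independent counts. A test of the difference in spread was not run.

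**Figure D3:**
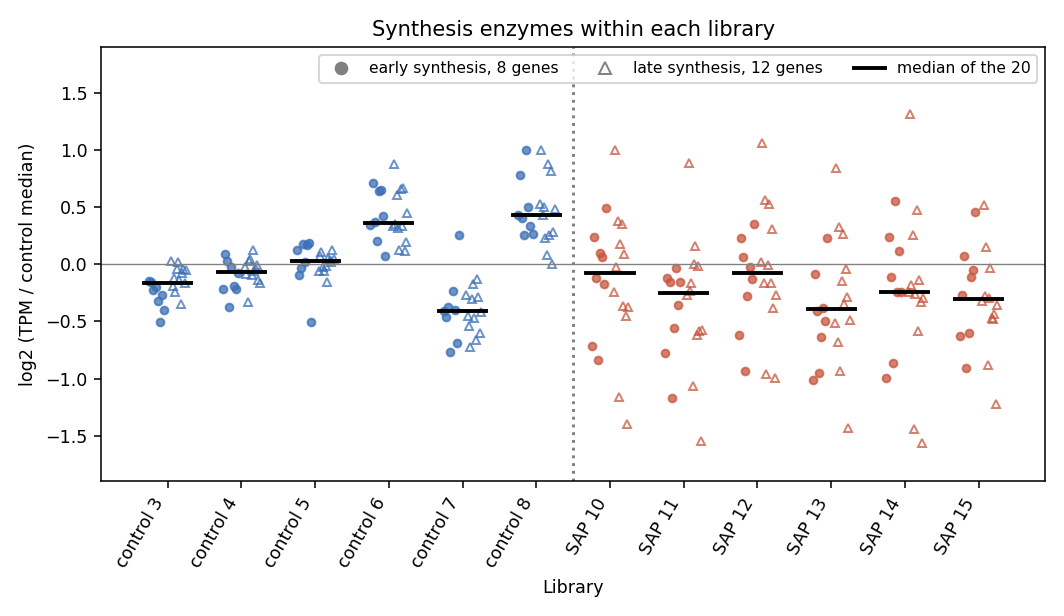
Each point is 1 of the 20 synthesis enzymes in 1 library, as log2 of TPM over the gene's control median; filled circles are early, open triangles late enzymes, and black bars the median of the 20. The enzymes move together in control 6, control 7 and control 8, with medians of 0.37, -0.41 and 0.44, and the SAP libraries have medians of -0.39 to -0.06. Genes are centred on their controls, so each SAP library also carries every gene's own difference between the groups. The wider scatter of enzymes within SAP libraries is therefore no measure of how they vary together.

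Among the 4 genes of SREBP control, Scap and Insig1 fell, Srebf2 lay at the threshold and Insig2 did not pass it. Insig1, itself a target of SREBP and its retention factor (chromosome 5, 28071363 to 28078662), ranged from 188 to 254 TPM in controls (median 216) and from 76.9 to 132 TPM in SAP (median 94.4). All 6 SAP values were below all control values, lowest in SAP 14, with a log2 difference of -1.18 ± 0.12 (SE; limma adjusted p = 6.01e-06). Scap, the escort, was tight in controls at 40.2 to 46.1 TPM (median 42.9) and lay at 15.6 to 31.0 TPM in SAP (median 24.4). The groups did not overlap (-0.84 ± 0.12, adjusted p = 8.91e-05), and within the high Xist libraries the difference was -0.63 (adjusted p = 0.00317).

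Srebf2 was 19.0 to 26.0 TPM in controls (median 22.1) and 22.2 to 30.1 TPM in SAP (median 27.3), higher than every control in 4 of 6 SAP libraries. Its log2 difference of 0.26 ± 0.10 (SE; limma adjusted p = 0.0499) was barely past the threshold. It missed it when any of 9 single libraries was left out (adjusted p of 0.0544 to 0.106), and it was 0.39 within the high Xist libraries (adjusted p = 0.0289). Insig2, the other retention factor, was 231 to 331 TPM in controls and 198 to 298 TPM in SAP (-0.10 ± 0.12). Within a library, Insig1 over Srebf2 was 8.38 to 11.3 in controls and 3.16 to 4.38 in SAP, Scap over Srebf2 1.54 to 2.24 and 0.705 to 1.09, and Insig1 over Insig2 0.730 to 1.03 and 0.280 to 0.666. The groups did not overlap in these 3 ratios, which were picked after the values were seen.

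**Figure D4:**
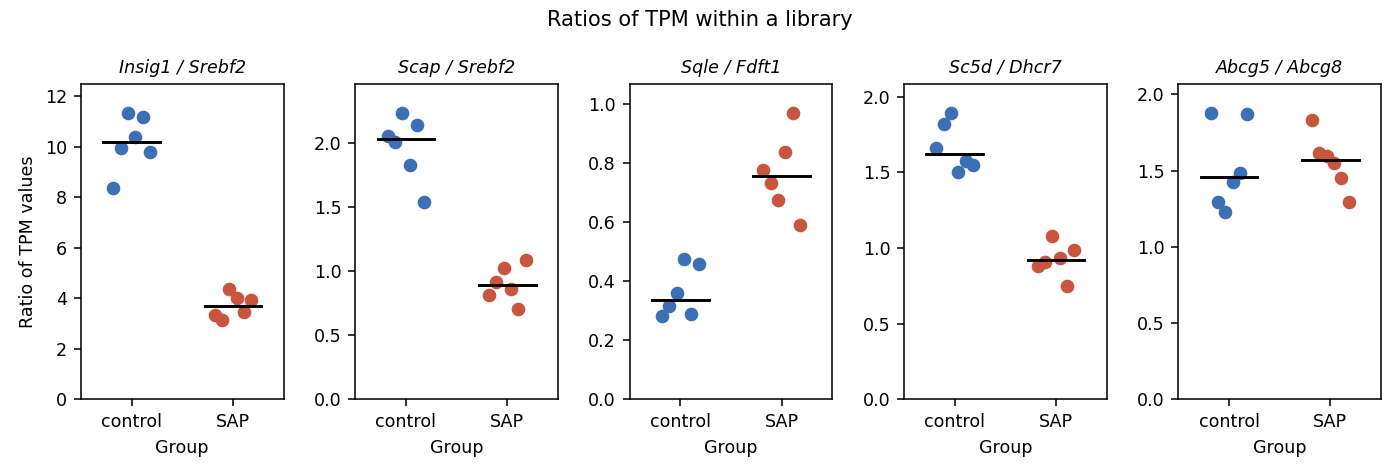
Ratios of the TPM of gene pairs (y axes start at 0) in 6 control (blue) and 6 SAP (red) libraries, with group medians as black lines. Groups are apart for Insig1 over Srebf2, Scap over Srebf2, Sqle over Fdft1 and Sc5d over Dhcr7, and overlap for Abcg5 over Abcg8 (1.23 to 1.88 in controls, 1.29 to 1.83 in SAP).

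Of the 5 genes of uptake, trafficking and storage, 2 fell, 2 rose and 1 did not pass the test (80.0% passed, against 44.5% of all tested genes). Soat2, which esterifies cholesterol for storage and lipoprotein assembly, ranged from 14.8 to 18.3 TPM in controls (median 16.2) and from 18.9 to 22.04 TPM in SAP (median 20.6). It was the 1 member whose SAP values all lay above all control values, against 10.5% of tested genes, with a log2 difference of 0.31 ± 0.06 (SE; limma adjusted p = 0.00138). Scarb1, the receptor that takes cholesteryl ester from HDL, rose by a similar amount, from 92.3 to 123 TPM (median 113) to 110 to 151 TPM (median 132). In 5 of 6 SAP libraries it exceeded every control (0.28 ± 0.09, adjusted p = 0.0211).

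Stard4, a cytosolic sterol carrier, was 26.4 to 34.5 TPM in controls (median 30.5) and 14.2 to 25.2 TPM in SAP (median 18.8), without overlap (-0.64 ± 0.11, adjusted p = 5.22e-04). Npc1, which lets cholesterol out of lysosomes, was 30.8 to 42.3 TPM in controls (median 39.1) and 19.3 to 34.4 TPM in SAP (median 24.5). Only SAP 12 reached the control range (-0.58 ± 0.14, adjusted p = 0.00449), and after rescaling without acute-phase transcripts the difference was -0.23 (adjusted p = 0.119). Mylip, a ubiquitin ligase that marks lipoprotein receptors for degradation, was 2.16 to 4.57 TPM in controls and 2.75 to 4.98 TPM in SAP (0.11 ± 0.16). Within the high Xist libraries, with only 2 SAP libraries there, none of these 3 passed: Scarb1 was 0.33 (adjusted p = 0.0541), Npc1 -0.46 (adjusted p = 0.105) and Stard4 -0.38 (adjusted p = 0.0550).

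Of the 3 exporters Abca1 rose, Abcg5 fell and Abcg8 did not pass the test (66.7% passed, against 44.5% of all tested genes). Abca1, which loads cholesterol onto apolipoprotein A-I, was 11.8 to 14.2 TPM in controls (median 13.2) and 14.1 to 18.2 TPM in SAP (median 15.7). It exceeded every control in 4 of 6 SAP libraries (0.24 ± 0.08, limma adjusted p = 0.0217), with adjusted p = 0.0516 without control 4. Abca1 and Scarb1 are also made by macrophages and endothelium. Kupffer cell or macrophage markers had a median log2 difference of -0.07 here, ranging from -0.72 to 4.5, with 1 of 9 higher and 3 lower. Monocyte markers had a median of 1.77 (3 tested) and markers of sinusoidal endothelium 0.18 (up to 1.25 in 1 gene). The part of these cells in the Abca1 and Scarb1 values was not tested.

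Abcg5 and Abcg8, which work only as a pair to pump sterols into bile, had similar differences, of which only that of Abcg5 passed the test. Abcg5 was 22.3 to 38.3 TPM in controls (median 36.6) and 12.2 to 31.0 TPM in SAP (median 24.5), and Abcg8 11.9 to 29.5 TPM (median 25.8) and 8.38 to 20.04 TPM (median 16.5). Control 8 was the lowest control and SAP 14 the lowest SAP library for both, and the groups overlapped through control 8. Abcg5 passed the test (-0.57 ± 0.20, adjusted p = 0.0312) and Abcg8 did not (-0.59 ± 0.24, adjusted p = 0.0546). Without control 8 they were -0.69 (adjusted p = 0.0103) and -0.77 (adjusted p = 0.00776), and Abcg5 missed the threshold without each of 6 other libraries (control 3, 4, 5, 6 and 7 and SAP 10) and within the high Xist libraries (-0.57, adjusted p = 0.0657). Their ratio overlapped fully between the groups. The genes lie in opposite directions on chromosome 17 (Abcg5 from 84658234 to 84683011, Abcg8 from 84676302 to 84700333) with 6710 bases in common, and whether counting used strand was not given in the sources used here.

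Other genes around the pathway were counted from a list of 49, of which 48 were tested (Gramd1b reached 1.34 TPM at most). Of these 19 fell, 7 rose and 22 did not pass the test, with a median log2 difference of -0.14. The share that passed was 54.2%, against 44.5% of all tested genes. Electron donors and accessory proteins of sterol enzymes formed 1 sublist, and not all of its genes belong to sterol synthesis. Among them were donors that Sqle, Cyp51, Msmo1 and Sc5d rely on. Of the 6 genes of this sublist 5 fell, 0 rose (0 at an unadjusted p under 0.05) and the groups were separate for all 5. Cyb5a, the endoplasmic reticulum cytochrome b5, went from 2282 ± 141 to 899 ± 223 TPM (SD, n = 6 each; log2 difference -1.39 ± 0.16 SE, limma adjusted p = 1.11e-05). Its homologue Cyb5b fell by 1.15 and the reductase Cyb5r3 by 0.84 on the log2 scale.

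All 6 listed genes of the path from cholesterol to bile acids fell (0 rose, 0 at an unadjusted p under 0.05). Among all tested genes, 2832 of 11335 were lower in SAP. Cyp27a1, which starts the acidic pathway, was 184 to 271 TPM in controls and 52.2 to 91.1 TPM in SAP (-1.71 ± 0.13, limma adjusted p = 5.97e-07). Cyp8b1, which sets the share of cholic acid, was -2.80 ± 0.55 with 1 SAP library, SAP 12, at 140 TPM inside the control range, and Cyp7b1 was -1.02 ± 0.20.

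The counts of the next sublists can be set against all tested genes, of which 44.5% passed the test in either direction. In 10.5% of tested genes all SAP values lay above all control values. Of the isoprenoid branches, 2 of 8 rose and 3 fell. Dhdds (0.63 ± 0.10) and Nus1 (0.55 ± 0.08), the subunits of the enzyme that builds dolichol from farnesyl diphosphate, both rose with separate groups, and Pdss2 (-0.63 ± 0.10), of the ubiquinone side chain, fell. In sterol sensing and SREBP processing 1 of 11 fell and 1 rose: Srebf1, the sister factor that favours fatty acid synthesis, fell by 1.497 and Erlin1 rose by 0.27 on the log2 scale, a call of Erlin1 that was lost in 6 of 24 alternatives, those without control 4 or 6 or SAP 10, 11, 12 or 15 (adjusted p at most 0.0646). Marchf6, a ubiquitin ligase that acts on Sqle, did not pass the test (-0.25 ± 0.10, limma adjusted p = 0.0579, and 0.016 to 0.378 over 24 alternatives, of which 5 put it below the threshold, among them those without control 5 and without SAP 12), and its difference was 0.09 after rescaling without acute-phase transcripts. Among receptors, esterification and efflux 3 of 8 rose and 1 fell, with Lrp1 at 0.57 ± 0.15, the plasma enzyme Lcat at 0.30 ± 0.07 and Vldlr at -1.56 ± 0.16. In sterol transfer 3 of 9 fell and 1 rose, with Stard5 at -0.61 ± 0.16, Gramd1c at -0.60 ± 0.22 and Osbp at 0.38 ± 0.10. The Gramd1c call was lost in 12 of 24 alternatives (differences of -0.74 to -0.20 over all 24, adjusted p at most 0.293), among them Xist as a term and those without control 3, 4, 6, 7 or 8 or SAP 13, 14 or 15. Stard5 lost its call after rescaling without acute-phase transcripts and within the high Xist libraries (adjusted p at most 0.102), and Osbp within the high Xist libraries (adjusted p = 0.0572).

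**Figure D5:**
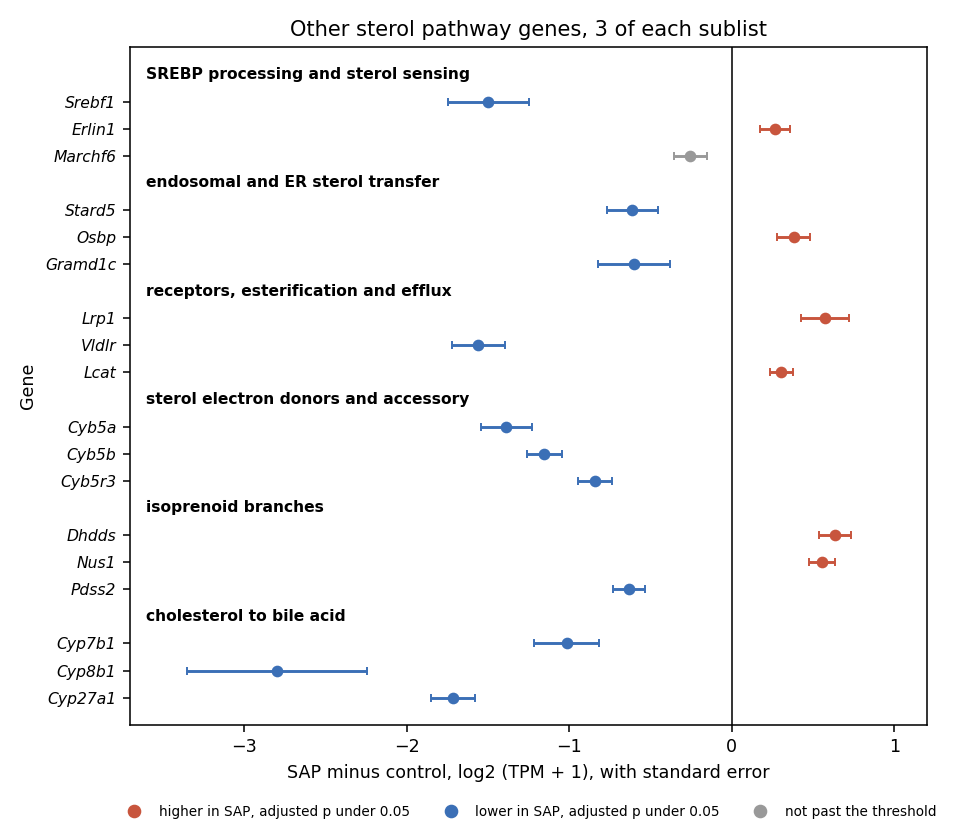
The x axis gives the log2 difference, SAP minus control on the log2(TPM + 1) scale, with standard errors, for the 3 genes of each of 6 sublists with the smallest adjusted p. Electron donors and bile acid enzymes are to the left of 0, and Dhdds and Nus1 to the right; Marchf6, which did not pass the test, moves from -0.25 to 0.09 when TPM is rescaled without acute-phase transcripts.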

How the data were processed

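RNA of 12 frozen liver samples, 6 control and 6 SAP, was sequenced from standard Illumina libraries, per the labels' protocols. The authors deposited 1 table, whose unit was taken as TPM from 2-decimal values that summed to between 993412 and 995793 in each library; no header or label names the unit. EdgeR is named in the submitters' processing notes with no role or version. The aligner, build, annotation and handling of strand or shared reads were not given in the sources used here. Sequencing depth cannot be read from TPM, so values carry no counting interval.

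The main test was limma 3.58.1 with trend (R 4.3.3) on log2(TPM + 1), with group as the only term and genes of at least 1 TPM in at least 6 libraries (11335 of 55367 symbols; 120 rows repeated a symbol, and the row with the highest median was kept). P-values were two-sided, with Benjamini-Hochberg adjustment at 0.05 over all genes tested. Log2 differences understate the change of low genes. The members and lists were chosen with earlier results of these data known. The text names all members and, of the other pathway genes, the 3 of each sublist with the smallest adjusted p; 1 gene of that list is not reported here and is left out of its counts. Alternatives covered normalization, filters, the empirical Bayes step, the pseudocount, repeated symbols, Xist as a term or limit, and leaving out libraries. The pipeline was tested on simulated data. Gene positions are from GENCODE M21 on GRCm38, promoters from RefSeq on GRCm38.p6, and figures were drawn with matplotlib 3.10.9.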

Additional observations from a re-analysis of the deposited data

Results flagged for a closer look

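Single libraries that stood apart from the other 5 of their group (a gap to the nearest value, over the group's range, above Dixon's critical value) were found in 6 of 100 groups of values, from 50 genes in both conditions; chance flags about 1 in 20. Abcg5 was 22.3 TPM in control 8, where the nearest control had 35.2 TPM. Pmvk was 45.9 TPM in SAP 11, where the nearest SAP library had 53.4 TPM. Among other pathway genes, Marchf6 was 20.45 TPM in control 5 (nearest 25.7 TPM), Cyb5r3 was 267 TPM in control 5 (nearest 237 TPM) and Cyp27a1 was 184 TPM in control 5 (nearest 239 TPM). Cyp8b1 was 140.2 TPM in SAP 12, where the nearest SAP library had 36.8 TPM.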

How the results depend on the processing

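Under all 24 alternatives 5 of the 17 called members passed the test in the same direction, Sc5d, Tm7sf2, Scap and Insig1 lower and Soat2 higher; 15 of 17 kept their direction throughout, Ebp and Fdft1 being the exceptions. With TPM rescaled without acute-phase transcripts, 5762 genes were higher and 1337 lower, with 9 and 7 members, 1 early and 4 late enzymes higher, 2 late enzymes, 1 gene of uptake and 0 exporters lower, and 23 other pathway genes higher. In high Xist libraries alone 1829 genes were lower, with 3 members higher and 5 lower, 0 early and 3 late enzymes lower, 0 late enzymes higher, and 1 gene of uptake higher, 0 lower, and 0 exporters lower; fewer samples entered there. Quantile normalization gave 11 other pathway genes higher, 2 late enzymes and 0 exporters lower. With no filter 3 members were higher, with 0 late enzymes and 0 genes of SREBP control, and 0 exporters lower; SREBP control also had 0 higher without trend and with a pseudocount of 0.1. With Xist as a term 3 late enzymes were lower, with a mean of at least 5 TPM 2 exporters, and without SAP 14 and control 5 there were 0 late enzymes higher and 0 exporters lower. Leaving out 1 library gave 3 to 5 members higher and 10 to 12 lower, 0 to 1 of SREBP control higher, 0 to 1 exporters higher and 0 to 2 lower, 4 to 6 late enzymes lower, 1956 to 2452 genes higher and 2537 to 3062 lower.

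Signs turned as follows, the cause not tested. After the rescaling the log2 differences were 0.25 for Hmgcs1, 0.22 for Mvk, 0.20 for Idi1, 0.22 for Fdps, 0.0101 for Fdft1, 0.11 for Lss, 0.22 for Lbr (adjusted p = 0.0323), 0.0048 for Nsdhl, 0.10 for Hsd17b7, 0.26 for Insig2 and 0.0917 for Marchf6. Under quantile normalization they were 0.23 for Hmgcs1, 0.0287 for Mvk, 0.10 for Idi1, 0.0817 for Fdps, 0.0142 for Ebp and 0.27 for Insig2. With Xist as a term Hmgcs1 was 0.0403 and Lbr 0.0045, and in high Xist libraries alone Hmgcs1 was 0.0417, Idi1 0.0090 and Lbr 0.0727. Leaving out 1 library moved Hmgcs1 between -0.23 (without control 7) and 0.0213 (without control 8), with 0.00824 without control 6. No paired analysis was possible because control and SAP samples share no numbers. Depth is unknown, so the precision of low genes such as Ggps1, Lbr and Mylip cannot be given.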
